A study of Mus musculus with 12 samples.

Results

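The Myc, Max and Mxd network was followed as 9 genes, chosen by symbol with earlier results of these data known. These were Myc and Mycn, their partner Max, the antagonists Mxd1, Mxd3, Mxd4, Mxi1 and Mnt, and Mga. All 9 were among the 55291 symbols of the count table, and all 9 had enough counts to be tested beside 19010 genes in all. RNA was sequenced from primary CD8+ T cells, the cytotoxic lymphocytes, of mouse lymph node and spleen in 12 libraries. The groups were Dock8 KO cells embedded in gel, Dock8 KO cells in media, WT cells embedded in gel and WT cells in media, with 3 libraries each. Cells of every group had been activated and expanded for 3 days, and then spent 24 h in media or in bovine collagen (Nutragen) at 2 mg/mL. Dock8 encodes an activator of the GTPase Cdc42, a regulator of actin. The labels give 3 mice per group, and neither their age nor the Dock8 allele.

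Max is the common dimer partner of the network. Myc and Mycn bind E-box DNA as heterodimers with Max and activate genes of growth, nucleotide synthesis, ribosome production and cell cycle entry; in CD8+ T cells Myc is induced by the antigen receptor and sustained by interleukin-2. The Mxd proteins, Mxi1 and Mnt pair with Max at the same sites and recruit Sin3 corepressors, so that they oppose Myc, and Mga, a very large protein with a second DNA-binding domain, pairs with Max in a Polycomb-type repressor. Mxd3 is the member of its family linked to proliferating cells, whereas Mxd1, Mxd4 and Mxi1 are linked to cell cycle exit and differentiation.

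Dock8 itself was lower in every KO library. It had 158 to 168 CPM (counts per unit of 1000000 library counts, with TMM-scaled totals) in KO gel, 109 to 126 CPM in KO media, 378 to 450 CPM in WT gel and 362 to 443 CPM in WT media. Libraries held 28483064 to 61390702 counts. The KO gel libraries stood apart from the other 9 in the number of genes detected: thinned to 28483064 counts each, 28362 to 30104 genes had a count there, against 24336 to 25142 elsewhere. Mitochondrially encoded transcripts took 2.27 to 2.61% of the counts in KO gel, against 1.34 to 2.31% in the other libraries, where KO media library 2 overlapped. WT gel library 2 had 18.6% and KO media library 3 had 12.3% of its counts at loci that resemble ribosomal RNA, against 3.84 to 9.36% in the other libraries. The 6 CD8 T cell markers summed to 2190 to 2369 CPM in KO gel, 2209 to 2525 CPM in KO media, 2463 to 2691 CPM in WT gel and 2443 to 2665 CPM in WT media. Of 4 neutrophil markers S100a8 and S100a9 were at 0 in KO gel, and the sum was 1.16 to 1.35 CPM in KO gel, 0.142 to 0.333 CPM in KO media, 0.0398 to 0.126 CPM in WT gel and 0 to 0.0562 CPM in WT media. The 5 markers of erythroid cells and platelets reached 19.5 CPM in KO gel, where Itga2b averaged 9.54 CPM, and at most 5.87 CPM elsewhere. Those of B cells reached 15.4 CPM, of NK and γδ T cells 17.2 CPM, and of macrophages and dendritic cells 48.7 CPM. The 4 stromal markers, nearly all of it Pecam1, reached 146 CPM. The 4 CD4 and regulatory T cell markers, nearly all of it Ctla4 and Ikzf2, summed to 450 to 486 CPM in KO gel, 308 to 362 CPM in KO media, 496 to 510 CPM in WT gel and 381 to 404 CPM in WT media, with Cd4 itself at 5.29 CPM on average in KO gel and 2.39 CPM in WT gel. The part of these library measures and markers in the results below was not tested. In bulk RNA, fewer cells that express a gene and less RNA per cell cannot be told apart.

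The promoters of 4 members are shown because 3 of them (Mnt, Mxd3 and Mga) carry the differences between groups, and because Mnt and Mxd4 hold the network's own binding site. Each line gives the 250 bases before the transcript start in RefSeq on build GRCm38.p6, in the direction of transcription, with the E-box CACGTG in capitals where it occurs.
Mnt, chr11:74830674-74830923, plus strand: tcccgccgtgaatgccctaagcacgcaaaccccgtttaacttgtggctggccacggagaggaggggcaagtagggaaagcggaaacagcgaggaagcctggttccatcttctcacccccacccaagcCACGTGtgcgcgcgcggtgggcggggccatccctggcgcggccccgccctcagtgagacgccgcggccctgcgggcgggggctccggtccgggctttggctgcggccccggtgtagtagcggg
Mxd4, chr5:34187711-34187960, minus strand: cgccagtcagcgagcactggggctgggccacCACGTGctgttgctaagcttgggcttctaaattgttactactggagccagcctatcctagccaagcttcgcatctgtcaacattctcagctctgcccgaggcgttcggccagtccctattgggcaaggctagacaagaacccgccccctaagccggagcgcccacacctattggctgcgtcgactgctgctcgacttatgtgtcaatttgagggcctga
Mxd3, chr13:55329732-55329981, minus strand: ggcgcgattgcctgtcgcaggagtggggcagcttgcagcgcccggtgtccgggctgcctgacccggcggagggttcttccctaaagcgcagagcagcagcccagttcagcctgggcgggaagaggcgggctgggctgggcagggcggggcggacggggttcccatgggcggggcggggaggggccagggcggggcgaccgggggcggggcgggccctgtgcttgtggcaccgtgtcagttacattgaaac
Mga, chr2:119896978-119897227, plus strand: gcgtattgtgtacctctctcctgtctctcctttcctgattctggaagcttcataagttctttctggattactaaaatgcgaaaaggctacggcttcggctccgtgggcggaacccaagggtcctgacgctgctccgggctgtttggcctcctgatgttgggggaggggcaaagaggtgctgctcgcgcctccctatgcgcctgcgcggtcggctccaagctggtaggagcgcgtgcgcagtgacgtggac

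CACGTG reads the same on both strands. It lay 123 bases before the start of Mnt and 219 bases before that of Mxd4, and the shown windows of Mxd3 and Mga did not hold these letters. Of the 8 members with a window in the RefSeq table, 2 held it, counted by gene. Of all 32851 windows of the same length 6.02% held it, a share by window that is not like for like, as some belong to the same gene. A match is a description of the sequence and says nothing about binding in these cells.

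Per kilobase of exon, which allows genes to be compared, Myc was the most abundant member in every group and Mycn the least. Over the 12 libraries Myc had 57.6 ± 9.01 CPM per kb (SD), Mxd4 19.5 ± 2.25, Mxd3 15.4 ± 2.73, Max 15.4 ± 1.08, Mga 8.09 ± 1.07, Mnt 6.59 ± 0.84, Mxd1 4.93 ± 0.49, Mxi1 4.02 ± 0.63 and Mycn 0.50 ± 0.04, all as levels. The gap between Myc and every other member exceeded their spread, as did that between Mycn and the rest. Max and Mxd3 had equal means and overlapping libraries, and the libraries of Mxd4 and Mxd3, of Mga and Mnt, of Mnt and Mxd1, and of Mxd1 and Mxi1 overlapped. The place of Mxd3 beside Max moved between groups: Mxd3 had 11.5 ± 0.50 and Max 15.5 ± 0.46 CPM per kb in KO gel, without overlap, whereas Mxd3 had 18.1 ± 0.57 and Max 16.0 ± 2.02 CPM per kb in WT media (SD, n = 3). Myc made up 41.3 ± 3.71% of the summed network in KO gel, 46.4 ± 1.99% in KO media, 42.0 ± 7.68% in WT gel and 44.0 ± 4.61% in WT media (SD, n = 3 each). The summed level of the antagonists Mxd1, Mxd3, Mxd4, Mxi1 and Mnt was 0.926 ± 0.141 times that of Myc in KO gel, 0.777 ± 0.0677 times in KO media, 1.01 ± 0.352 times in WT gel and 0.891 ± 0.148 times in WT media. These ratios overlapped between all groups. WT gel library 3, with the least Myc and the most Mxd4 of the 12, had the highest ratio, 1.41.

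**Figure D1:**
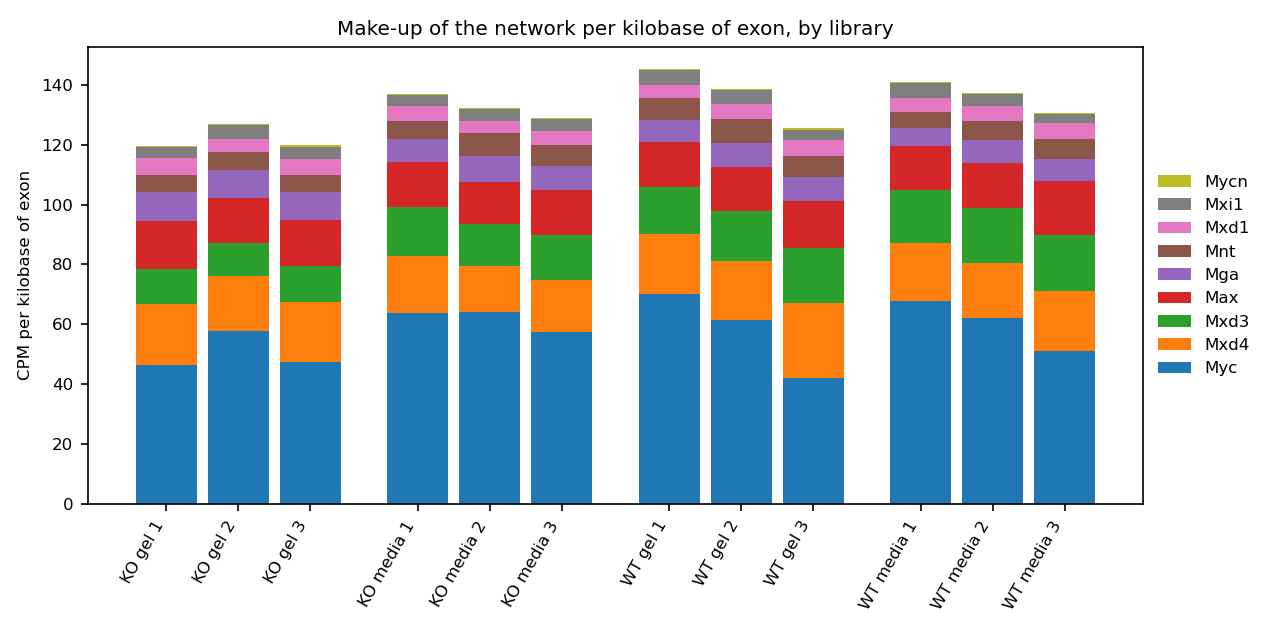
Stacked bars give the level of each network gene in CPM per kilobase of exon (y axis) in each of the 12 libraries (x axis, by group). Myc is the largest part of every bar, from 42.0 CPM per kb in WT gel library 3 to 70.2 in WT gel library 1.

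Of the activators, Myc (chromosome 15, 61985391 to 61990374, plus strand, in GENCODE M21 on GRCm38, as for the protein-coding genes below) did not pass the test in any comparison, and its WT libraries were the most spread. Its levels were 126, 157 and 129 CPM in KO gel, 173, 174 and 156 CPM in KO media, 191, 167 and 114 CPM in WT gel and 184, 168 and 138 CPM in WT media, for libraries 1, 2 and 3. KO gel libraries 1 and 3 lay below all KO media libraries, and library 2 lay above 1 of them, so the groups overlapped. The fitted difference was −0.29 (log2, SE 0.16) in KO gel against KO media, with adjusted p 0.206 by the quasi-likelihood test of edgeR, adjusted over all genes after Benjamini and Hochberg. It was called at a like size when just the KO libraries were fitted (−0.28, adjusted p 0.0225) and with every gene that had a count (−0.33, adjusted p 0.00127). In WT gel against WT media it was −0.06 (SE 0.16, adjusted p 1.00), and the difference between both gel responses was −0.23 (SE 0.23, adjusted p 0.604). In KO gel against WT gel it was −0.20 (SE 0.16, adjusted p 0.444). There, leaving out WT gel library 3 made it a call (−0.39, adjusted p 0.0470, edgeR).

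In WT cells, library 1 had the highest and library 3 the lowest Myc in both cultures, and Mxi1 did the same. Mxi1 (chromosome 19, 53310518 to 53375810, plus strand), an antagonist of the Mxd family, had 34.1, 30.3 and 22.1 CPM in WT gel and 33.5, 27.2 and 19.4 CPM in WT media. The spread across these libraries exceeded the difference between the cultures (0.11 on the log2 scale, SE 0.18, adjusted p 1.00 in edgeR's test). In KO cells Mxi1 lay between 26.0 and 30.6 CPM in gel and between 25.8 and 27.2 CPM in media.

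Mycn (chromosome 12, 12936093 to 12941914, minus strand), the paralog that is prominent in embryonic and neural tissue, was near the lower limit of the network, with 43 to 97 counts per library and 1.51 to 1.86 CPM. It was the member with the least counts, and its largest difference was 0.20 (log2, SE 0.15, adjusted p 0.994, edgeR) in WT gel against WT media, where the libraries did not overlap. Max (chromosome 12, 76937269 to 76962201, minus strand), the common dimer partner, had 57.1, 53.9 and 56.1 CPM in KO gel, 54.9, 50.1 and 53.9 CPM in KO media, 54.6, 53.0 and 57.2 CPM in WT gel and 53.0, 53.9 and 66.0 CPM in WT media. All of its fitted differences were within 0.15 on the log2 scale and all groups overlapped. WT media library 3 was its highest value.

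**Figure D2:**
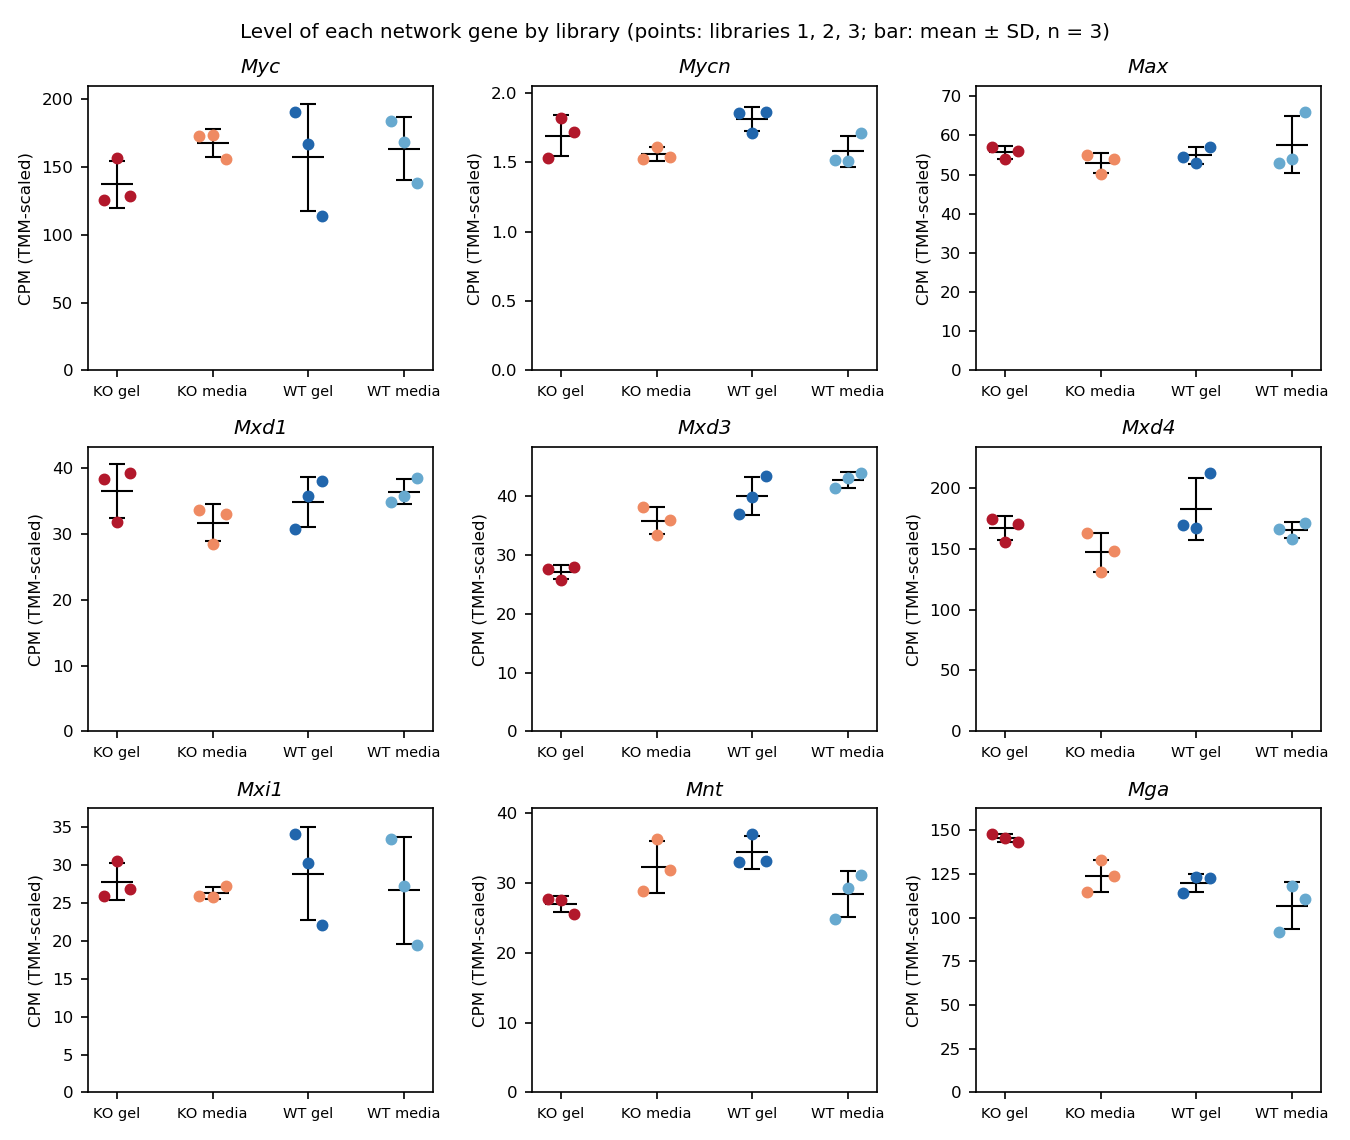
Each panel shows one gene, with its TMM-scaled CPM (y axis, from 0) in libraries 1 to 3 of each group (x axis); the horizontal bar is the mean and the whiskers the SD, n = 3. The 3 KO gel points of Mxd3 (25.8 to 27.9 CPM) lie below the points of the other groups, and those of Mga (144 to 148 CPM) above them.

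Mxd3 was the antagonist with the clearest change: it fell in KO gel. Its levels were 27.7, 25.8 and 27.9 CPM in KO gel, 38.1, 33.5 and 35.9 CPM in KO media, 36.9, 39.9 and 43.4 CPM in WT gel and 41.3, 43.1 and 44.0 CPM in WT media. Every KO gel library was below every other library. Mxd3 fell by 0.40 on the log2 scale in KO gel against KO media (SE 0.07, adjusted p 0.00219), to 75.7% of the media level, and by 0.56 in KO gel against WT gel (SE 0.07, adjusted p 0.000346), to 67.7% of the WT level, both in edgeR's test. Both comparisons share the KO gel libraries. The value was −0.09 (SE 0.07, adjusted p 0.994) in WT gel against WT media. In KO media against WT media it was −0.26 (SE 0.07, adjusted p 0.356), with no overlap between the libraries. Whether the gel response differed between the genotypes was not shown in the main analysis (−0.31, SE 0.10, adjusted p 0.120, edgeR). With the replicate number as a block this difference was called lower, though the labels do not say that these numbers pair libraries. The calls of Mxd3 against KO media and against WT gel held in all 12 fits that left out 1 library. Mxd3 (chromosome 13, 55325168 to 55329823, minus strand) shares 105 exon bases, 4.43% of its exons, with Prelid1 on the opposite strand, a mitochondrial lipid transfer gene. Prelid1 had −0.36 (SE 0.09, adjusted p 0.0155) in KO gel against KO media and −0.34 (SE 0.09, adjusted p 0.0245) in KO gel against WT gel. Without a stated strand setting, the counts of these genes may share reads in that stretch.

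Mnt (chromosome 11, 74830920 to 74845725, plus strand) is the antagonist that is present in both resting and dividing cells. Its response to gel was called different between KO and WT cells in the main analysis, a call that many other fits lost. Mnt had 27.6, 27.6 and 25.6 CPM in KO gel, 28.8, 36.2 and 31.9 CPM in KO media, 33.0, 37.0 and 33.1 CPM in WT gel and 24.8, 29.3 and 31.2 CPM in WT media. The KO gel libraries were all below those of KO media, whereas the WT gel libraries were all above those of WT media. The gel response of KO cells minus that of WT cells was −0.53 (log2, SE 0.14, adjusted p 0.0499, edgeR), just within the threshold of 0.05. Each response alone did not pass: −0.26 (SE 0.10, adjusted p 0.0706) in KO gel against KO media and 0.27 (SE 0.10, adjusted p 0.824) in WT gel against WT media. The first was called lower without a filter (−0.31, adjusted p 0.00952), with only the KO groups (−0.25, adjusted p 0.0309), and without KO media library 1, WT media library 1 or WT media library 3 (−0.34 to −0.26, adjusted p 0.0284 to 0.0495). In KO gel Mnt was lower than in WT gel (−0.35, SE 0.10, adjusted p 0.0279), with no overlap, and in KO media against WT media the value was 0.18 (SE 0.10, adjusted p 0.712). The difference between the responses lost its call, by edgeR, in 8 of 12 fits without 1 library (each KO gel library, KO media 2 and 3, WT gel 1 and 2, and WT media 2), with −0.45 to −0.57 and adjusted p 0.0649 to 0.121 in those. With total counts as the scaling it was −0.40 (adjusted p 0.144), against a median of all genes that moved by 0.12. The call in KO gel against WT gel was lost without any 1 of the KO gel libraries or WT gel library 2 (−0.29 to −0.37, adjusted p 0.0628 to 0.105).

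Mga (chromosome 2, 119897228 to 119969581, plus strand) was higher in KO gel than in WT gel. It had 148, 146 and 144 CPM in KO gel, 115, 133 and 124 CPM in KO media, 114, 123 and 123 CPM in WT gel and 92.0, 118 and 111 CPM in WT media. Every KO gel library was above every other library, and the KO gel libraries differed by the least. The difference was 0.28 in KO gel against WT gel (log2, SE 0.09, adjusted p 0.0391, edgeR), 1.215-fold. In KO gel against KO media it was 0.23 (SE 0.08, adjusted p 0.0635), and it was called among the more abundant genes (0.31, adjusted p 0.0384), with only the KO groups (0.24, adjusted p 0.0108) and without WT media library 1 (0.23, adjusted p 0.0170). WT gel against WT media gave 0.17 (SE 0.09, adjusted p 0.936) and KO media against WT media 0.21 (SE 0.08, adjusted p 0.606), so that the fitted value was above 0 in all 4, and the gel responses differed by 0.07 (SE 0.12, adjusted p 0.795). The call in KO gel against WT gel was lost in 7 of 12 fits without 1 library (each gel library of both genotypes and KO media 3), at 0.24 to 0.30 and adjusted p 0.0646 to 0.133.

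Mxd1 (chromosome 6, 86647042 to 86669161, minus strand) and Mxd4 (chromosome 5, 34173883 to 34187720, minus strand), the antagonists of differentiating cells, were not called in any comparison of the main analysis. With the replicate number as a block, both were called higher in KO gel against KO media. Mxd1 had 31.7 to 39.3 CPM in KO gel, 28.5 to 33.6 CPM in KO media, 30.7 to 38.1 CPM in WT gel and 34.8 to 38.5 CPM in WT media. Its values were 0.20 (log2, SE 0.10, adjusted p 0.158) in KO gel against KO media and −0.20 (SE 0.10, adjusted p 0.696) in KO media against WT media, where the libraries did not overlap. The gel responses of Mxd1 differed by 0.26 (SE 0.14, adjusted p 0.318, edgeR), which was called higher with the same block. Mxd4 had 156 to 174 CPM in KO gel, 131 to 163 CPM in KO media, 167 to 212 CPM in WT gel and 158 to 171 CPM in WT media. Its gel responses were alike in size, 0.18 (SE 0.10, adjusted p 0.196) in KO cells and 0.15 (SE 0.10, adjusted p 0.994) in WT cells, all by edgeR. Of the exon bases of Mxd4 6.06% lie over an antisense gene model, Gm42846, and of those of Mxi1 2.84% over a gene model on the other strand, Gm10197.

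**Figure D3:**
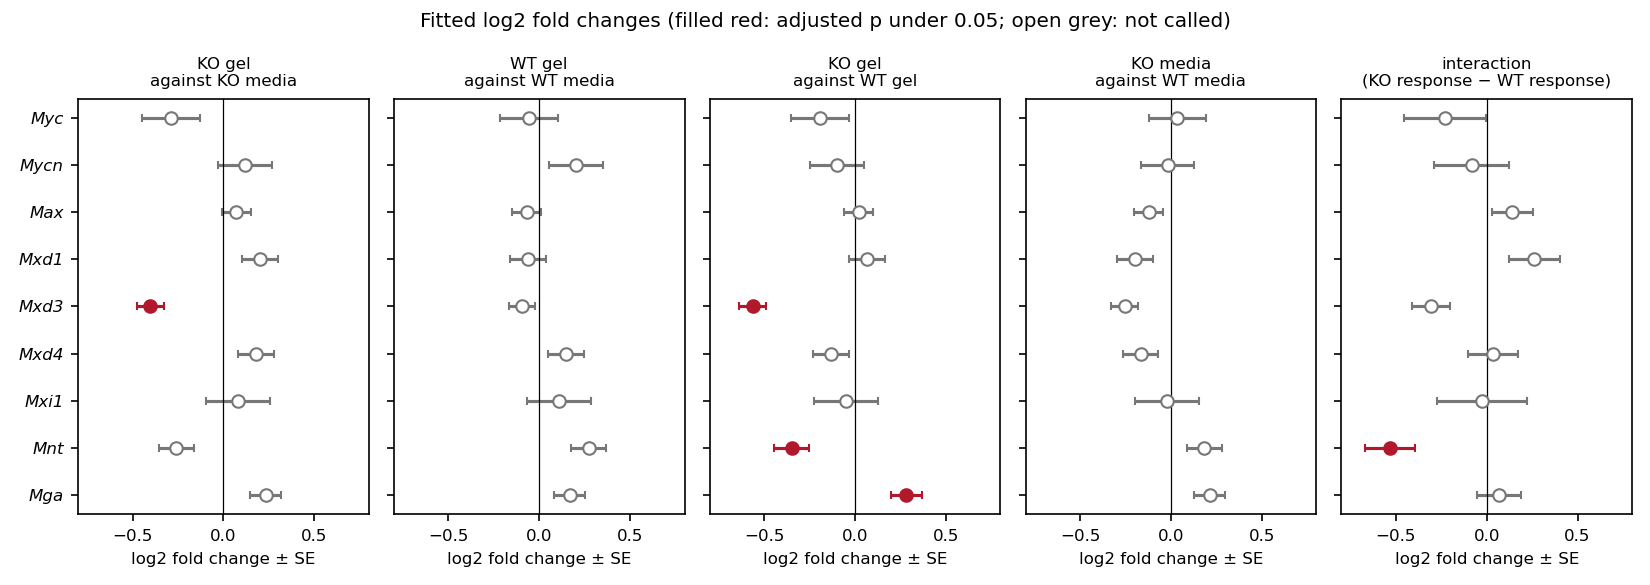
Points give the fitted log2 fold change of each gene (rows) with its SE in the 5 comparisons (panels); filled red points have an adjusted p under 0.05 and open grey points do not. Mxd3 is filled in both comparisons of KO gel, Mnt and Mga in KO gel against WT gel, and Mnt in the interaction.

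Counted over the network, 1 of 9 members was called in KO gel against KO media (Mxd3, lower), where 20.8% of all genes tested were called, and 3 of 9 in KO gel against WT gel (Mga higher, Mxd3 and Mnt lower), where 14.8% were called. In the interaction 1 of 9 was called (Mnt), against 3.35% of all genes. In WT gel against WT media edgeR and DESeq2 called 0 of 9, with 1 at an unadjusted p under 0.05 (Mnt), and 0.0368% of all genes were called. In KO media against WT media both called 0 of 9, with 2 at an unadjusted p under 0.05 (Mxd3 and Mga), against 0.189% of all genes. With 9 members, none of these counts sets the network apart from all genes. How many of all genes had groups without overlap was not counted, so a lack of overlap does not set a member apart either. Scaling shifts the balance of calls: over all genes, KO gel against WT gel gave 1354 higher and 1465 lower with TMM, and 1875 higher and 407 lower with total counts, and KO gel against KO media gave 2111 higher and 1851 lower with TMM, and 2007 higher and 869 lower with total counts. With total counts Mxd3 was still called lower in both, and Mga higher against WT gel.

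The genes most like each member over the 12 libraries, by Pearson r of log2 CPM among 8952 other named genes whose log2 CPM averaged 3 or more, are given as a description; the libraries share their groups and scaling. Myc was closest to Zbtb32 (r = 0.975), a repressor of lymphocyte activation, followed by the nucleolar gene Nop56 (0.968), the MAP kinase phosphatase gene Dusp4 (0.967), the galactokinase gene Galk1 (0.961) and the RNA helicase gene Ddx56 (0.961). Mxd3 was closest to Knstrn (0.990), which encodes a mitotic spindle protein. In KO gel Knstrn had −0.35 (log2, SE 0.08, adjusted p 0.00718) against KO media and −0.48 (SE 0.08, adjusted p 0.00146) against WT gel, in edgeR's test. Mxd4 was closest to Zbtb17 (0.964), which encodes Miz1, a DNA-binding partner of Myc in gene repression. For the others these were Samhd1 for Max (0.926), Spata13 for Mxd1 (0.936), Rida for Mxi1 (0.943), Hnrnpl for Mnt (0.932), Abl2 for Mga (0.961) and Pla2g15 for Mycn (0.837).

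Further members of the extended network are Mycl, Mlx, Mlxip and Mlxipl, of which Mlx is a Max-like partner of the glucose-sensing Mondo factors. Of these 4, Mlx fell in KO gel against KO media (−0.27, SE 0.08, adjusted p 0.0333) and 3 were not called. Mlx averaged 26.7 ± 0.31 CPM in KO gel and 32.2 ± 2.46 CPM in KO media (SD, n = 3 each). Both of the Mondo and Mlx targets listed rose in KO gel against KO media, Arrdc4 by 0.49 (SE 0.11, adjusted p 0.00851) and Txnip, an inhibitor of glucose uptake, by 0.26 (SE 0.08, adjusted p 0.0412), where 11.1% of all genes rose. Arrdc4 averaged 10.6 ± 0.55 CPM in KO gel, 7.61 ± 1.22 CPM in KO media, 9.58 ± 0.48 CPM in WT gel and 10.9 ± 0.76 CPM in WT media (SD, n = 3 each), so that KO media was the low group. In KO media against WT media it had −0.53 (SE 0.11, adjusted p 0.129, edgeR), without overlap, and DESeq2 called it lower (adjusted p 0.0084). Its gel response differed between the genotypes (0.68, SE 0.16, adjusted p 0.0349, edgeR), where 1.89% of all genes were called higher. In KO gel against KO media 9.74% of all genes, and 16.8% of those whose log2 CPM averaged 3 or more, fell. The share of the 15 cofactors was near these, with 2 that fell and 13 not called (median −0.14): Wdr5, which tethers Myc to chromatin (−0.35, SE 0.10), and Sin3a, the scaffold of the corepressor that Mxd proteins recruit (−0.20, SE 0.06). Sin3a was also lower in KO gel than in WT gel (−0.27, SE 0.06, adjusted p 0.0114), the only cofactor called there. Of 12 genes of Myc protein turnover 3 fell in KO gel against KO media and 9 were not called, with a median of −0.04; those that fell include the kinase gene Aurka (−0.35, SE 0.07) and the ubiquitin ligase subunit gene Skp2 (−0.26, SE 0.07). Aurka (−0.38) and Skp2 (−0.41) were also lower in KO gel than in WT gel. Adjusted p of these cofactor and turnover genes ran from 0.00171 to 0.0405 in edgeR's test.

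Textbook targets of Myc fell in part in KO gel against KO media, where Myc itself was not called in the main analysis. The part of Myc in these differences was not tested. Of 12 cell cycle targets 9 fell, 1 rose and 2 were not called, with a median of −0.40 on the log2 scale against −0.007 over all genes tested and −0.08 over those whose log2 CPM averaged 3 or more. The share that fell was 9.74% of all genes and 16.8% of those more abundant ones. Of the 10 cell cycle targets with a promoter window, 2 held the E-box (Cdk4 and Cul1). A binding site form of E2F factors was held by 3 (Cdc25a, Mcm5 and Mcm7). Of all windows, counted by window and not by gene, 6.02% held the E-box and 1.53% such an E2F site. The other target lists below held these too. Of 15 targets in ribosome production and translation with a window, 3 held the E-box and 3 an E2F site. Of 19 targets in metabolism and transport with a window, 4 held the E-box and 1 an E2F site. Ccne1, which encodes cyclin E1, fell by 0.47 (SE 0.05), and the replicative helicase subunit genes Mcm4 and Mcm7 fell by 0.48 (SE 0.07) and 0.50 (SE 0.08). The one that rose, Tert, was named after its value was seen. It encodes the telomerase subunit and had 7.29 ± 0.64 CPM in KO gel and 4.58 ± 0.71 CPM in KO media. In WT cells, where it was not called, it had 6.39 ± 0.49 CPM in gel and 4.84 ± 0.80 CPM in media. Of 24 targets in metabolism and transport 8 fell, 0 rose and 16 were not called, with a median of −0.27. They included Impdh2 of guanine nucleotide synthesis (−0.56, SE 0.12), Paics of purine synthesis (−0.46, SE 0.09), Umps of pyrimidine synthesis (−0.49, SE 0.12) and the glucose transporter gene Slc2a1 (−0.37, SE 0.11). Of 20 targets in ribosome production and translation 4 fell, 0 rose and 16 were not called, with a median of −0.22, a share of calls near that of the more abundant genes. These were the nucleolar genes Npm1 (−0.54, SE 0.08) and Ncl (−0.30, SE 0.07) and the translation initiation genes Eif4a1 (−0.39, SE 0.09) and Eif4e (−0.35, SE 0.09). Adjusted p of the targets named here ran from 0.000101 to 0.0246 in edgeR's test. The counts for metabolism depended on the fit: edgeR called 3 lower without the 2 libraries rich in ribosomal RNA loci, 5 with total counts as scaling, 12 with only the KO groups, 17 without a filter and 18 with the replicate block. For ribosome and translation it called 3, 3, 11, 13 and 13 lower in the same order of settings.

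Among 7 genes that Myc represses, 4 rose in KO gel against KO media, 0 fell and 3 were not called, with a median of 0.39, where 11.1% of all genes rose. Cdkn1a, the gene of the p21 inhibitor of cell cycle kinases and also a p53 target, rose by 1.23 (SE 0.16), Gadd45a, a DNA damage-inducible gene that p53 also induces, by 0.93 (SE 0.16), and Ndrg1, a stress-responsive gene, by 0.39 (SE 0.12), with adjusted p 0.000299 to 0.0382 in edgeR's test. The fourth, Cdkn2b, an inhibitor of Cdk4 and Cdk6, had only 5 to 17 counts per library in KO gel and 0 to 4 in KO media. Without the libraries rich in ribosomal RNA loci 2 of the 7 rose. Ndrg1 averaged 22.6 ± 1.73 CPM in KO gel and 22.8 ± 2.32 CPM in WT gel.

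In KO gel against WT gel 8 of the 12 cell cycle targets fell and 0 rose (median −0.41, against −0.0003 over all genes; 7.71% of all genes, and 13.3% of those averaging 3 or more, fell). They included Ccne1 (−0.50, SE 0.05), E2f1, an S phase transcription factor gene (−0.58, SE 0.08), Mcm4 (−0.41, SE 0.07) and Mcm7 (−0.50, SE 0.08). Of the 24 metabolic and transport targets 3 fell and 1 rose (median −0.03), namely Slc2a1 (−0.56, SE 0.11), Paics (−0.44, SE 0.09), Impdh2 (−0.48, SE 0.12) and the amino acid transporter subunit gene Slc3a2 (0.21, SE 0.06), where 7.12% of all genes rose. Of the 20 ribosome and translation targets only Npm1 was called (−0.33, SE 0.08), by edgeR and not with total counts as scaling, where 1 gene was called higher. Of the repressed genes Cdkn1a (0.99, SE 0.16) and Gadd45a (0.78, SE 0.16) rose and Ndrg2 fell (−0.41, SE 0.07). Txnip rose (0.29, SE 0.08). The adjusted p of these genes lay between 8.14e-05 and 0.0388 (edgeR).

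In WT gel against WT media edgeR called 0 genes of the 8 lists of partners, cofactors and targets, with medians of −0.005, −0.03 and −0.06 for the cell cycle, metabolic and ribosome targets. Of these 3 lists 1, 1 and 0 genes had an unadjusted p under 0.05. With the replicate block, Slc2a1 was called higher in WT gel (0.22, SE 0.05, adjusted p 0.0429), the only call in the 8 lists under it; without a filter, Cdkn1a was (0.41, SE 0.09, adjusted p 0.00189). In KO media against WT media edgeR also called 0 genes of the 8 lists, against 6 without a filter, and 1, 2 and 0 genes of the metabolic, ribosome and cell cycle targets had an unadjusted p under 0.05. The fitted values of 23 of the 24 metabolic targets and of 20 of the 20 ribosome targets were above 0 there (medians 0.15 and 0.13, against −0.01 over all genes). Of the 19010 genes tested 8953 were above 0. The targets are read in the same libraries, so their signs are not independent. Between the genotypes, the response to gel differed for 6 of the 12 cell cycle targets, all lower in KO cells: Ccne1 (−0.46), E2f1 (−0.54), Cdc25a (−0.50), Mcm4 (−0.46), Mcm5 (−0.50) and Mcm7 (−0.50), where 1.45% of all genes, and 2.67% of those averaging 3 or more, were called lower. It also differed for Paics (−0.51), Slc2a1 (−0.59) and Npm1 (−0.57). For these 9 the adjusted p lay between 0.00880 and 0.0473 (edgeR). With total counts as scaling, and without the libraries rich in ribosomal RNA loci, edgeR called 0 of the targets in these 3 lists.

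**Figure D4:**
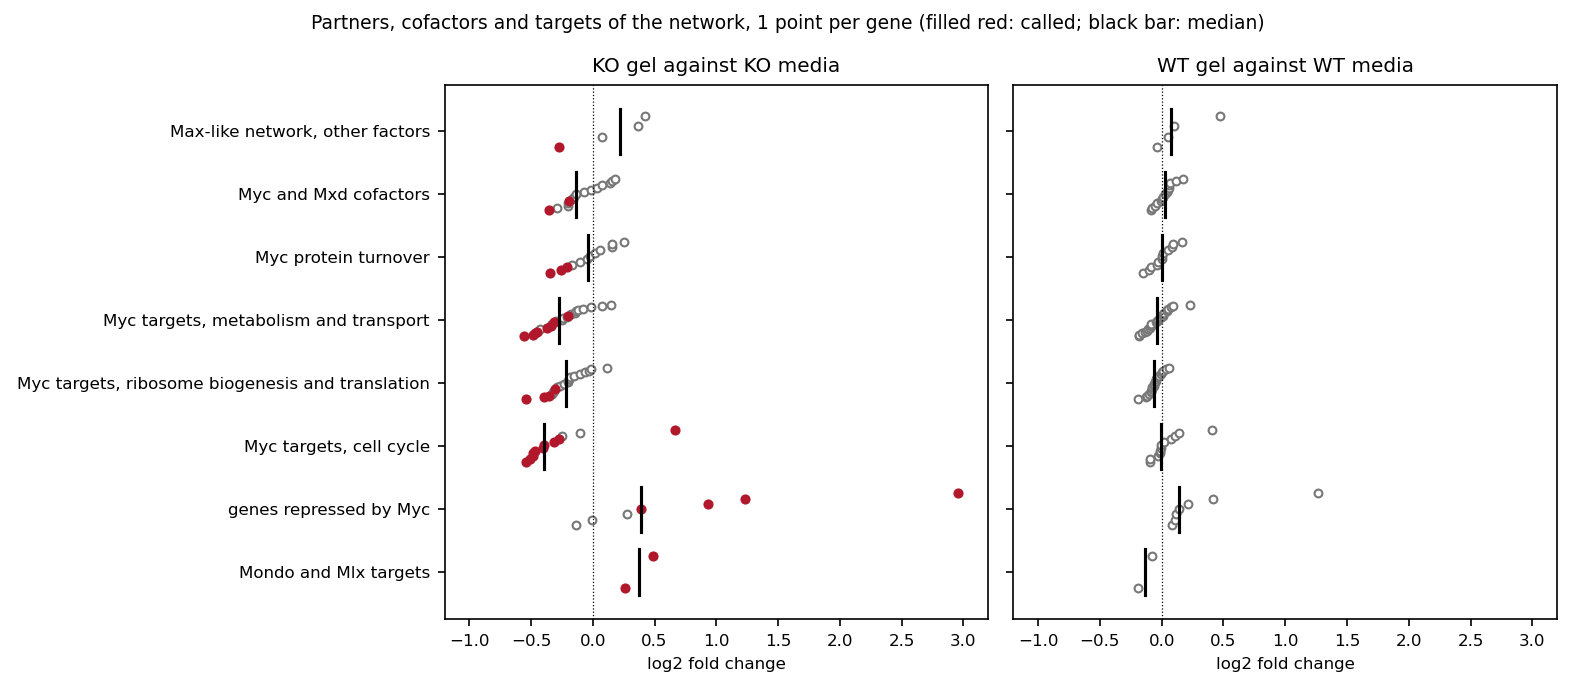
Each point is one gene of the list at the left, placed by its log2 fold change in KO gel against KO media (left panel) and WT gel against WT media (right panel); filled red points have an adjusted p under 0.05 and the black bar is the list's median. The median of the cell cycle targets is −0.40 in KO cells and −0.005 in WT cells, and no gene is filled in the WT panel.

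Pvt1, a long noncoding RNA gene that starts 47611 bases downstream of Myc, was named after its values were seen. It had 26.8, 29.1 and 27.1 CPM in KO gel, 17.8, 17.0 and 16.3 CPM in KO media, 19.1, 19.0 and 18.0 CPM in WT gel and 16.2, 18.7 and 17.8 CPM in WT media. The KO gel libraries were above all others. It was higher by 0.70 (log2, SE 0.07, adjusted p 5.06e-05) in KO gel against KO media and by 0.57 (SE 0.07, adjusted p 0.000334) in KO gel against WT gel. Its gel response differed between the genotypes (0.61, SE 0.10, adjusted p 0.0106, edgeR), and the same test gave −0.23 (SE 0.23, adjusted p 0.604) for Myc.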

How the data were processed

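Total RNA (PureLink kit, 150 ng per library, RiboCop ribosomal RNA depletion, KAPA RNA HyperPrep) was measured in 12 libraries, per the labels' protocols. The authors deposited 1 raw count per gene symbol and library, with no normalization; the submitters' processing notes name HISAT2, featureCounts, SAMtools, Picard, FastQC and MultiQC, and the build GRCm38 (mm10). For versions, annotation, strand setting and duplicates: not given in the sources used here. An unstranded count would mix overlapping genes on opposite strands. From the deposited counts, genes were kept by edgeR's filterByExpr (19010; the rest held 0.0437 to 0.104% of a library), scaled by TMM and fitted over the 4 groups at once with edgeR's robust quasi-likelihood test (R 4.3.3, edgeR 4.0.16, limma 3.58.1; DESeq2 1.42.0 as an alternative). The contrasts, 5 in all, were gel against media in each genotype, KO against WT in each culture and the interaction; a call is a p under 0.05 after Benjamini-Hochberg adjustment across the 19010 genes, and SE is the absolute log2 fold change over the square root of F. The fit was checked on simulated data for KO gel against KO media, in sets of 50 changed genes. It called 20% of those changed 1.25-fold, 86% of those changed 1.5-fold, 94% of those changed 2-fold and 100% of those changed 4-fold. Of its 163 calls 13 were false. Few genes were changed there, unlike in KO gel, so these shares need not hold here. Most differences of 1.25-fold were missed, so a member that was not called may still differ. Log2 levels used a prior count of 2; lengths, positions and overlaps came from GENCODE M21 (GRCm38), which matched 96.4% of symbols, as the union of exons, and promoters from RefSeq.

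Replicates of a group differed by more than counting noise (chi-square per degree of freedom 13.6 to 172), so that the error came from the spread between libraries. Replicate numbers were checked for pairing by the correlation of deviations from group means over the 9919 genes averaging a log2 CPM of 3 or more. WT gel and WT media gave 0.786, 0.238 and 0.796, KO media and WT media 0.214, 0.170 and 0.382, KO gel and KO media −0.0399, 0.200 and 0.174, and KO gel and WT gel −0.454, 0.151 and 0.142. A rule of more than 0.1 in every pair of like number was met in the first 2 comparisons only. KO media 2 with WT media 1, of unlike number, also gave 0.105. Deviations from a mean of 3 libraries depend on one another, so the rule cannot show that libraries share a mouse. With the replicate number as a block, WT gel against WT media called 171 genes in place of 7, and 0 of the 9 members as without it. In KO media against WT media the block changed no call of a member.

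The members, lists and alternatives were chosen with earlier results of these data known. Named were all members; up to 4 called genes per list and contrast in order of p, and those called in the interaction; and by likeness 5 genes for Myc and 1 for each other member. Cdc25a, Mcm5 and Arrdc4 entered by the interaction, and overlapping genes by position. One gene of the protein turnover list is not reported here. Alternatives were DESeq2, total counts as scaling, no filter, only the 9919 higher genes, blocks, fewer libraries and leaving out each library.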

Additional observations from a re-analysis of the deposited data

Results flagged for a closer look

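The gel response of Mnt differed between the genotypes by the test of the difference itself, at −0.532 on the log2 scale (SE 0.14, adjusted p 0.0499, edgeR's interaction term). This call was just within the threshold. It was lost in 8 of 12 fits without 1 library, and in settings given below. Mnt averaged 26.9 ± 1.18 CPM in KO gel and 32.3 ± 3.75 CPM in KO media, and 34.4 ± 2.31 CPM in WT gel and 28.4 ± 3.25 CPM in WT media (SD, n = 3 each).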

How the results depend on the processing

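With DESeq2, total counts as scaling, no filter, only genes with a mean log2 CPM of 3 or more, the replicate block, only the groups compared, libraries rich in ribosomal RNA loci left out and each library left out, the calls of Mxd3 in both comparisons of KO gel held. Of 841 values of single members 764 kept direction and side of the threshold, 33 changed sign, 26 lost a call and 18 gained one. Most of these values were not called in the main analysis, so the 764 are largely values that stayed uncalled. The 26 lost calls were all of Mnt and Mga. Mnt lost its call in KO gel against WT gel with total counts (−0.24, adjusted p 0.130), higher genes only (−0.27, adjusted p 0.109) and ribosomal RNA-rich libraries left out (−0.29, adjusted p 0.139), and in the interaction with the same settings (−0.40, −0.46 and −0.49, adjusted p 0.144, 0.129 and 0.196). Mga lost its call in KO gel against WT gel with those libraries left out (0.30, adjusted p 0.105). In KO gel against KO media the replicate block called Myc (−0.29, adjusted p 0.00272), Mnt (−0.25, adjusted p 0.00935) and Mga (0.24, adjusted p 0.00294), which the main analysis did not. It also called Mxd1 and Mxd4 higher there, again unlike the main analysis. In the interaction the block called Mxd1 higher and Mxd3 lower beside Mnt. The cause was not tested.

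The number of members called in KO gel against KO media, 1 in the main analysis, was 3 without a filter, 2 among higher genes, 6 with the replicate block, 4 with only the KO groups and 1 to 3 with a library left out. In KO gel against WT gel, 3 in the main analysis, it was 1 without the ribosomal RNA-rich libraries and 1 to 3 with a library left out. In the interaction, 1 in the main analysis, it was 0 with total counts, 0 among higher genes, 0 without the ribosomal RNA-rich libraries, 3 with the replicate block and 0 to 1 with a library left out. Over all genes, KO gel against KO media called 6063 without a filter, 2042 among higher genes, 7804 with the replicate block, 2200 without the ribosomal RNA-rich libraries, 6159 with only the KO groups, and 2163 to 5510 with a library left out. WT gel against WT media called 49 with DESeq2, 15 with total counts, 195 without a filter, 3 among higher genes, 171 with the replicate block, 2 with only the WT groups, and 7 to 16 with a library left out. KO gel against WT gel called 1493 among higher genes, 1444 without the ribosomal RNA-rich libraries, and 1609 to 3893 with a library left out. KO media against WT media called 88 with DESeq2, 435 without a filter, 15 among higher genes, 19 without the ribosomal RNA-rich libraries, and 23 to 70 with a library left out. The interaction called 1104 with DESeq2, 1768 without a filter, 244 among higher genes, 3431 with the replicate block, 30 without the ribosomal RNA-rich libraries, and 185 to 2011 with a library left out; it has no fit with fewer groups.

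Values of members that were not called changed sign in some settings. Mxi1 in KO gel against WT gel was 0.058 with total counts and 0.029 among higher genes, and Max was −0.0091 without a filter and −0.0050 without the ribosomal RNA-rich libraries. Mxi1 in KO media against WT media was 0.0069 with the replicate block. In the interaction Mycn was 0.037 and Mxi1 0.100 with total counts, Mxi1 was 0.041 among higher genes and 0.026 without the ribosomal RNA-rich libraries, and Mxd4 was −0.00095 without a filter and −0.030 without those libraries. With a library left out, WT gel against WT media ranged from −0.221 to 0.134 for Myc, −0.126 to 0.040 for Max, −0.129 to 0.023 for Mxd1 and −0.077 to 0.307 for Mxi1. KO gel against WT gel ranged from −0.0052 to 0.044 for Max, −0.024 to 0.154 for Mxd1 and −0.219 to 0.090 for Mxi1. KO media against WT media ranged from −0.071 to 0.130 for Myc, −0.048 to 0.042 for Mycn and −0.207 to 0.178 for Mxi1. The interaction ranged from −0.048 to 0.135 for Mxd4, −0.231 to 0.153 for Mxi1 and −0.014 to 0.158 for Mga.

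Replicate numbers do not pair the KO gel libraries with the others by the rule used, so the counts with the replicate block share only a number there. The labels give 3 mice per group and not whether gel and media shared them. Depth limits Mycn, with at most 97 counts per library, and 3 libraries per group limit every interval.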
